A study of Mus musculus with 2 samples.

Results

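The secretases are the proteases that cut the amyloid precursor protein and many other membrane proteins of neurons, and 9 of their genes are described here out of the 55536 annotated genes of the tables. They were taken by symbol from a list that sets no threshold on any measured value, though earlier results of these data were known when it was made: Adam10 for alpha-secretase, Bace1 and Bace2 for the beta-secretase family, and Psen2, Psenen, Ncstn, Aph1a, Aph1b and Aph1c for the subunits of gamma-secretase. All 9 symbols matched 1 gene each. Total RNA, depleted of ribosomal RNA, had been sequenced from the left cerebral cortex of 2 male mice aged 8 to 10 months, from 300 ng of RNA each. Both mice were 5xFAD crossed with CAST and formed 1 group, here called replicate 2 and replicate 1 as labelled. The 5xFAD line expresses mutant human genes of inherited Alzheimer disease, the amyloid precursor protein included, from the Thy1 promoter, which is active mainly in neurons, and CAST is a wild-derived inbred strain. The labels give both samples the same donor entry, which describes the strain cross, and separate biosample entries. Transgene-free mice were not analysed here. The data therefore give the levels of these genes in this cortex and the difference between its 2 animals, with no test of the transgenes.

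Cleavage of the amyloid precursor protein starts at the cell surface or in endosomes. The metalloprotease ADAM10 cuts within the amyloid-beta stretch, whereas the aspartyl protease BACE1 cuts at its start, and BACE2, the close relative of BACE1, cuts mainly inside it. The stub that either cut leaves in the membrane is then cleaved by gamma-secretase, a complex of 1 presenilin as catalytic subunit, nicastrin (Ncstn) as the large glycoprotein that gates substrates, Pen-2 (Psenen), which activates the presenilin, and 1 Aph-1 protein as a scaffold. Rodents have the Aph-1 genes Aph1a, Aph1b and Aph1c, so several kinds of complex can form.

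The sequences below mark the parts of the genes that the transcript results turn on, read from the GENCODE M21 transcripts of mm10. BACE1 and BACE2 each carry 2 active-site motifs that together make the catalytic centre. The second motif of Bace1 lies in exon 6 of 9, at chr9:45858400-45858501 on the plus strand, and that exon is the coding stretch which Bace1-202, the second main transcript of the gene, leaves out. Its counterpart in Bace2 is exon 6 of 9, at chr16:97415079-97415180 on the plus strand. Capitals mark the codons of the second motif, codons 289 to 291 in Bace1 and codons 299 to 301 in Bace2. The exons are both 102 bases long and differ at 36 positions.
Bace1 exon 6: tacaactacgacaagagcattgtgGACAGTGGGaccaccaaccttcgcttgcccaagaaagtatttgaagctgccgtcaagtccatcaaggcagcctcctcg
Bace2 exon 6: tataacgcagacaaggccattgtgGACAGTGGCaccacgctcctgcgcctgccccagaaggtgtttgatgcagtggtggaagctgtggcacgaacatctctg
The first motif is kept in both main Bace1 transcripts, with capitals on codons 93 to 95 of Bace1 and codons 106 to 108 of Bace2. The printed stretches around it span the join of exons 1 and 2. These 57-base stretches differ at 16 positions.
Bace1 first motif: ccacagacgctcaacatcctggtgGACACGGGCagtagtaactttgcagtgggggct
Bace2 first motif: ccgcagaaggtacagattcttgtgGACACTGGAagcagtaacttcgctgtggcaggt
The 2 other stretches show the catalytic motifs of the remaining proteases, which lie in the full-length reading frames. Capitals mark the zinc-binding motif of Adam10 (codons 384 to 394) and the second aspartate motif of Psen2 (codons 363 to 366). The printed stretches come from exons 9 and 10, of 16 in Adam10 and of 11 in Psen2.
Adam10 zinc site: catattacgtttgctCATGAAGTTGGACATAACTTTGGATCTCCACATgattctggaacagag
Psen2 aspartate motif: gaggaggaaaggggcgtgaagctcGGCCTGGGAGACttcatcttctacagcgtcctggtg
Aph1b and Aph1c are neighbours on the minus strand of chromosome 9, with 19503 bases between them, and their main coding sequences were identical at 742 of 771 aligned bases (96.2%). The first 150 coding bases, from exons 1 and 2 of 6 in each, held 16 of the differences, which are in capitals.
Aph1c start: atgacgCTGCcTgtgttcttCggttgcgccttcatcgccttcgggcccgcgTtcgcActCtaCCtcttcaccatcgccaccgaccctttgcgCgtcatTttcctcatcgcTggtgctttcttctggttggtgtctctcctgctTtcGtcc
Aph1b start: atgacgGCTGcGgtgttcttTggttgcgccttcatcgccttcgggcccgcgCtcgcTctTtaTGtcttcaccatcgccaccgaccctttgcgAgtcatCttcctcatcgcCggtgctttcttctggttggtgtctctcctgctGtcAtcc
The main coding sequence of Aph1a was 63.9% identical to that of Aph1b and 61.7% identical to that of Aph1c over the aligned bases. Aph1a makes a longer and a shorter protein that part near the end. Capitals mark the coding bases after the end of exon 6 as Aph1a-202 has it, which are 62 bases of exon 7 in Aph1a-202 and 8 bases in Aph1a-201, where exon 6 is the last and runs on. The split is by genome position, so single bases after it can be the same letter.
Aph1a-202 end: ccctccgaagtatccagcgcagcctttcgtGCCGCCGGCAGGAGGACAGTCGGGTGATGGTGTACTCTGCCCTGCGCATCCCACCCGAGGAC
Aph1a-201 end: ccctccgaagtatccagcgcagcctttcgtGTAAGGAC

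The libraries held 32380330 reads on genes in replicate 2 and 33925221 in replicate 1, as the sum of expected counts, the estimated reads that the authors' program assigned. Levels are deposited TPM, a share of all transcripts that is per length and so allows genes to be compared. Detection, taken as 1 TPM or more in each library, held for 9 of 9 secretase genes, against 13083 of 22028 protein-coding genes (59.4%). Markers of neurons (summed TPM of 4 genes 2112 in replicate 2 and 1875 in replicate 1), astrocytes (3 genes, 976 and 962), oligodendrocytes (3 genes, 950.4 and 982) and microglia (3 genes, 120.03 and 132) were detected throughout, as the tissue label gives. The 5 choroid plexus markers summed to 106 TPM in replicate 2 and 550.3 TPM in replicate 1, and all 5 met the rule for a difference between the animals given below, higher in replicate 1. The 3 immediate early genes Fos, Nr4a1 and Egr2 summed to 61.1 TPM in replicate 2 and 21.8 TPM in replicate 1, and all 3 met the rule, higher in replicate 2. In whole tissue, fewer cells of a type and less RNA per cell cannot be told apart, so the levels below are averages over all cell types.

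The secretase genes fell into a group of 5 at 24.9 to 42.6 TPM and a group of 4 at 2.36 to 9.51 TPM. The higher group held Adam10, Bace1 and the gamma-secretase subunits Psenen, Ncstn and Aph1a. The lower group held Bace2, Psen2, Aph1b and Aph1c. The groups did not overlap: Ncstn, the lowest of the higher group, was 2.91-fold above Psen2 in replicate 2 and 3.09-fold above it in replicate 1.

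**Figure D1:**
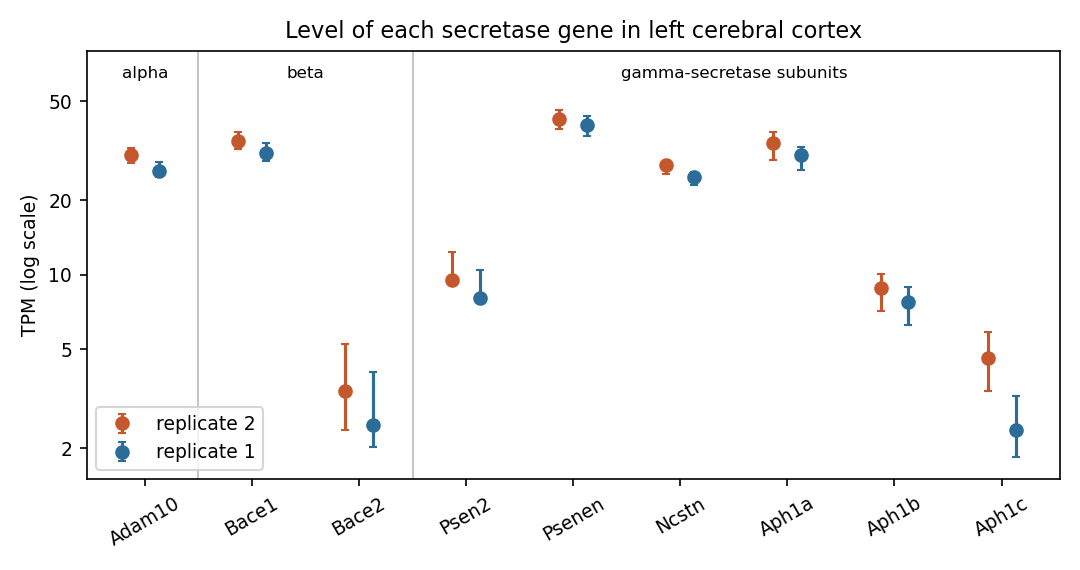
TPM of each secretase gene (log axis), with replicate 2 left of replicate 1 and bars for the interval that the deposited table gives for each value. Adam10, Bace1, Psenen, Ncstn and Aph1a sit between 24.9 and 42.6 TPM, and Bace2, Psen2, Aph1b and Aph1c sit between 2.36 and 9.51 TPM.

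Adam10, the main alpha-secretase of neurons (ENSMUSG00000054693.14, chr9:70678997-70780229, plus strand), had 30.3 TPM in replicate 2 and 26.3 TPM in replicate 1, a mean of 28.3 ± 2.85 (SD, n = 2). These values rested on 2710 and 2772 reads. The gene stood above 70.9% of the detected protein-coding genes. Adam10 was below Bace1 in both animals, at a ratio of Adam10 to Bace1 of 0.878 in replicate 2 and 0.846 in replicate 1. Of the other candidate alpha-secretases, the metalloprotease Adam9 had 19.2 and 16.98 TPM and Adam17, which releases tumour necrosis factor, had 7.92 and 6.74 TPM in replicates 2 and 1. Both were below Adam10 in both animals.

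Bace1, the beta-secretase of amyloid formation (ENSMUSG00000032086.12, chr9:45838580-45864399, plus strand), had 34.5 TPM in replicate 2 and 31.05 TPM in replicate 1, a mean of 32.8 ± 2.44 (SD, n = 2). It was the second most abundant of the 9 genes in both animals and stood above 74.8% of the detected protein-coding genes. Bace2 (ENSMUSG00000040605.7, chr16:97356742-97442936, plus strand), an enzyme best known from pancreas and pigment cells, had 3.41 TPM in replicate 2 and 2.49 TPM in replicate 1, a mean of 2.95 ± 0.651 (SD, n = 2), and stood above 11.3% of those genes. The TPM of Bace1 was 10.1 times that of Bace2 in replicate 2 and 12.5 times in replicate 1. Their coding sequences were 65.2% identical over the aligned bases, and they shared no stretch of 100 bases. The size of this gap depended on which Bace2 transcripts were counted. With transcripts annotated as protein-coding only, the ratio of Bace1 to Bace2 was 21.1 in replicate 2 and 36.9 in replicate 1, and with consensus coding transcripts only, tagged CCDS in the annotation, it was 35.7 and 30.4.

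Among the gamma-secretase genes, Psenen (ENSMUSG00000036835.7, chr7:30561863-30563627, minus strand) was the highest, with 42.6 TPM in replicate 2 and 40.3 TPM in replicate 1, a mean of 41.5 ± 1.59 (SD, n = 2). It was the highest of the 9 genes in both animals, and its deposited intervals did not overlap those of Bace1 in either. Psenen is a short gene, so this level rested on 555 reads in replicate 2 and 581 in replicate 1. Ncstn (ENSMUSG00000003458.12, chr1:172066013-172082795, minus strand) had 27.7 TPM in replicate 2 and 24.9 TPM in replicate 1, a mean of 26.3 ± 1.98 (SD, n = 2). Psen2 (ENSMUSG00000010609.15, chr1:180227004-180263438, minus strand), the presenilin described here, had 9.51 TPM in replicate 2 and 8.05 TPM in replicate 1, a mean of 8.78 ± 1.03 (SD, n = 2), from 357 and 345 reads. Psen2 was the lowest of the subunits other than Aph1b and Aph1c.

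The Aph-1 genes spanned the range. Aph1a (ENSMUSG00000015750.15, chr3:95893969-95898288, plus strand), the form that mice cannot develop without, had 34.06 TPM in replicate 2 and 30.4 TPM in replicate 1, a mean of 32.2 ± 2.60 (SD, n = 2). Aph1b (ENSMUSG00000032375.15, chr9:66775202-66795490, minus strand) had 8.81 TPM in replicate 2 and 7.74 TPM in replicate 1, a mean of 8.28 ± 0.757 (SD, n = 2). Aph1c (ENSMUSG00000053040.13, chr9:66814994-66834726, minus strand), the rodent duplicate of Aph1b, had 4.61 TPM in replicate 2 and 2.36 TPM in replicate 1, a mean of 3.49 ± 1.59 (SD, n = 2). Of the summed Aph-1 TPM, Aph1a took 71.7% in replicate 2 and 75.1% in replicate 1, Aph1b took 18.6% and 19.1%, and Aph1c took 9.71% and 5.83%. Aph1a was therefore the main Aph-1 RNA in both animals, at 2.54 times the sum of Aph1b and Aph1c in replicate 2 and 3.01 times in replicate 1.

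By mean TPM the order was Psenen, Bace1, Aph1a, Adam10, Ncstn, Psen2, Aph1b, Aph1c and Bace2, and only Bace2 and Aph1c changed places, in replicate 1. Several neighbours lay close together. The ranges over the 2 animals overlapped for Bace1 and Aph1a, for Adam10 and Ncstn, for Psen2 and Aph1b, and for Aph1c and Bace2. Within each animal, Bace1 was above Aph1a, by 0.44 and 0.66 TPM in replicates 2 and 1. In the same order, Adam10 was above Ncstn by 2.62 and 1.39 TPM, and Psen2 above Aph1b by 0.7 and 0.31 TPM. The deposited intervals of these pairs overlapped in both animals. The ranges of Aph1a and Adam10 did not overlap, but their deposited intervals did. In the kallisto-format table of the same libraries Adam10 stood above Aph1a, at a mean of 29.9 TPM against 29.3 TPM. The steps from Psenen to Bace1, from Ncstn to Psen2 and from Aph1b to Aph1c overlapped neither in the animals nor in the intervals. The last of these was narrow in the kallisto-format table in replicate 2, with 6.24 TPM for Aph1b and 5.54 TPM for Aph1c.

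Gamma-secretase takes up its kinds of subunit in equal numbers, and its RNA levels were not equal. Ncstn, which has no second gene, served as the measure. Psenen was at 1.54 times Ncstn in replicate 2 and 1.62 times in replicate 1, a mean of 1.58 ± 0.0586 (SD, n = 2). The 3 Aph-1 genes together were at 1.72 times Ncstn in replicate 2 and 1.63 times in replicate 1, a mean of 1.67 ± 0.0621. Aph1a alone exceeded Ncstn, at 1.23 and 1.22 times in replicates 2 and 1, whereas Aph1b was at 0.318 and 0.311 times and Aph1c at 0.167 and 0.0949 times. Psen2 was at 0.344 times Ncstn in replicate 2 and 0.324 times in replicate 1, a mean of 0.334 ± 0.0141. A summed presenilin level is not given. These are ratios of RNA and say nothing of the proteins.

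**Figure D2:**
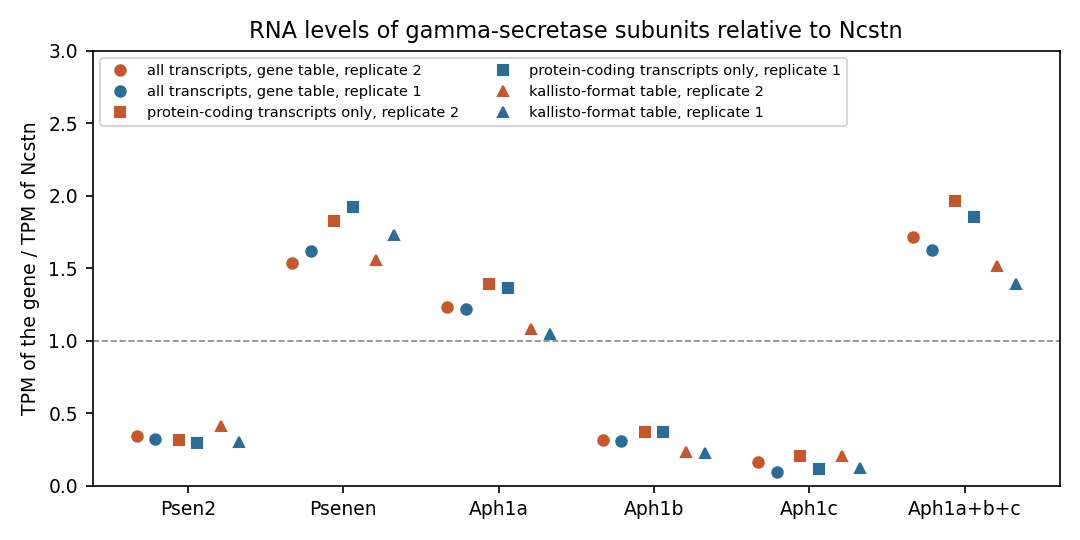
TPM of each gamma-secretase gene divided by that of Ncstn (the dashed line is equality), with replicate 2 left of replicate 1 in each pair, from the gene table, from protein-coding transcripts only and from the kallisto-format table. Psenen, Aph1a and the Aph-1 sum lie above 1 and Psen2, Aph1b and Aph1c below it in both animals by all 3 measures.

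The ratios kept their side of 1 where only protein-coding transcripts were counted, with means of 0.303 for Psen2, 1.87 for Psenen and 1.91 for the Aph-1 sum, and in the kallisto-format table, with means of 0.355, 1.64 and 1.45. Aph1a alone was nearer to Ncstn in the kallisto-format table, at 1.08 times in replicate 2 and 1.04 times in replicate 1. The ratios depend on the division by length. Per read, without that division, Psenen was at 0.368 and Aph1a at 0.826 times Ncstn, because Psenen transcripts averaged 684 bases in replicate 2 and 677 in replicate 1 against 2588 and 2597 for Ncstn.

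The difference between the animals was small for 8 of the 9 genes. It was measured on expected counts scaled by TMM, a normalization that assumes most genes are equal, as the log2 ratio of replicate 2 over replicate 1. A gene was called where it differed by 2-fold or more, held at least 10 reads in 1 library and had a 99.9% counting interval that excluded equal levels. The call was met by 0 of 9 secretase genes, against 237 of 19484 genes (1.22%), of which 111 were higher in replicate 2 (0.57%) and 126 lower in it (0.647%). The deposited data hold 1 library per animal, so no p-value or edgeR test between them exists. At any fold, the interval excluded equal levels for 1 of 9 secretase genes, Aph1c, against 8.76% of all genes tested.

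**Figure D3:**
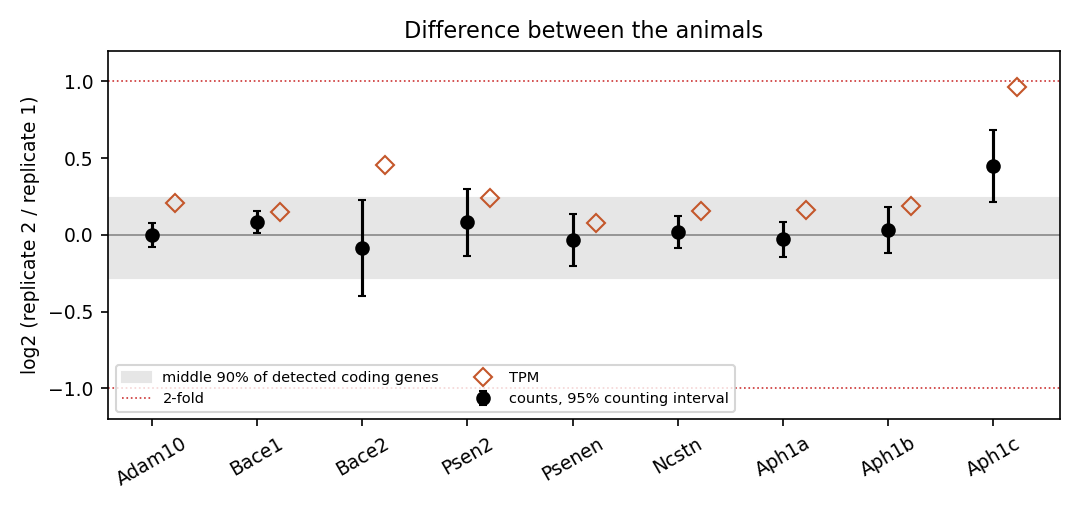
Log2 ratio of replicate 2 over replicate 1 for each secretase gene, from TMM-scaled counts with 95% counting intervals (black) and from TPM (open diamonds). The grey band holds the middle 90% of detected protein-coding genes by counts, and Aph1c, at 0.45, is the one gene outside it, while all 9 diamonds lie above 0.

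Adam10 had a log2 ratio of 0.00 (95% counting interval -0.08 to 0.08). Ncstn was at 0.02 (-0.08 to 0.12), Aph1a at -0.03 (-0.14 to 0.08) and Bace1 at 0.09 (0.02 to 0.16). The 95% interval of Bace1 excluded equal levels, as did that of Aph1c, while 26.2% of all genes tested did so. Psen2, at 0.08 (-0.13 to 0.30), and Bace2, at -0.08 (-0.40 to 0.23), had few reads and wide intervals. In the kallisto-format table the interval of Bace1 included equal levels, at 0.02 (-0.04 to 0.09). That of Aph1a excluded them there, at -0.11 (-0.22 to -0.002). These intervals hold counting error alone. Without molecular identifiers, reads are not independent molecules.

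Aph1c stood at 0.45 (0.22 to 0.69), from 351 reads in replicate 2 and 263 in replicate 1. Of the detected protein-coding genes, 2.90% had a ratio at least this far from 0. In the kallisto-format table Aph1c was at 0.36 (0.14 to 0.58). Aph1b and Aph1c share 451 distinct stretches of 100 bases, 8.58% of those of Aph1b and 8.76% of those of Aph1c, so some reads could have been assigned to either. The summed reads of the pair, which such assignment leaves alone, were 1078 in replicate 2 and 990.0 in replicate 1, a log2 ratio of 0.16 (0.03 to 0.28). Aph1b itself was at 0.03 (-0.12 to 0.18). Under the other scalings Aph1c stood at 0.44 to 0.53. The choroid plexus and immediate early markers, summed above, also differed between these animals, and their part in the Aph1c difference was not tested.

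TPM gave a different impression from counts. In the gene table, all 9 genes had a higher TPM in replicate 2, as did 77.3% of detected protein-coding genes, whose median log2 TPM ratio was 0.12. The kallisto-format table gave Psenen a lower TPM in replicate 2, at 41.9 against 48.95 in replicate 1. Ncstn (26.9 and 28.3 TPM), Aph1a (29.04 and 29.5) and Aph1b (6.24 and 6.40) were also lower in replicate 2 there, and the others higher. By TMM-scaled counts, 6 of the 9 were higher in replicate 2, by DESeq2 size factors 5, and by total reads or spike-ins 8, so the direction of the small differences depended on the scaling. For Aph1c the TPM ratio was 1.95-fold, a log2 ratio of 0.97 against 0.45 by counts. Its effective length, which the table averages over the transcripts it assigned, was 3420 bases in replicate 2 and 4464 in replicate 1. The log2 ratio of these lengths, -0.38, covered part of the gap, and the general TPM shift of 0.12 came besides. For Bace2 the effective length was 2158 bases in replicate 2 and 2864 in replicate 1, and its TPM was higher in replicate 2 although its reads, 164 and 178, were not.

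The transcripts of the genes differed in what they encode. The share of a gene's TPM in transcripts annotated as protein-coding was 100% for Aph1c, 96.1% for Psenen, 95.3% for Aph1b, 93.8% for Bace1, 91.1% for Aph1a, 82.6% for Adam10, 81.1% for Ncstn, 73.7% for Psen2 and 38.4% for Bace2, as means of the 2 animals. The rest was assigned to retained introns, to processed transcripts and to transcripts of the class degraded by nonsense-mediated decay.

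**Figure D4:**
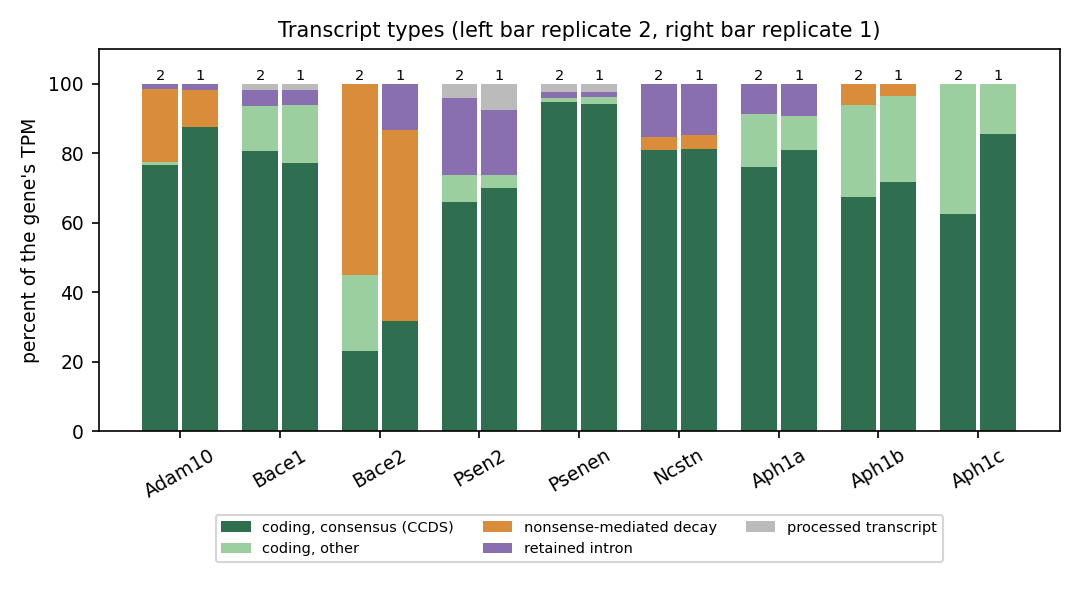
Share of each gene's TPM by annotated transcript type, replicate 2 as the left bar and replicate 1 as the right bar. Coding transcripts make up most of every gene but Bace2, whose largest part in both animals of this RSEM-format table is a transcript of the nonsense-mediated decay class.

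Bace1 RNA was split between a transcript that encodes the full enzyme and one that does not carry the second active-site motif. Bace1-201, with 501 codons, took 42.5% of the gene's TPM in replicate 2 and 38.6% in replicate 1, and had 14.7 TPM (deposited interval 12.95 to 15.4) and 11.98 TPM (10.6 to 12.8). Bace1-202, with 467 codons, took 38.3% in replicate 2 and 38.7% in replicate 1, and had 13.2 TPM (11.1 to 14.4) and 12.03 TPM (10.1 to 13.1). It lacks exon 6, printed above, and has no base that Bace1-201 lacks, whereas Bace1-201 has 2017 bases that it lacks, 102 of them coding and the others from the longer end of the last exon. The estimate of Bace1-202 therefore rested on the join of exons 5 and 7 and on where coverage ends. The third coding transcript, Bace1-206, has an incomplete reading frame, holds exon 6, and took 12.8% and 16.7% in replicates 2 and 1. In the kallisto-format table Bace1-202 took 28.2% in replicate 2 and 38.2% in replicate 1, and Bace1-201 took 27.3% and 28.7%. The transcript without exon 6 was thus among the main Bace1 transcripts in both tables and both animals.

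Adam10-201, with the full 749 codons, took 76.7% of Adam10 TPM in replicate 2 and 87.6% in replicate 1. Its level was nearly the same, at 23.2 TPM in replicate 2 and 23.02 TPM in replicate 1. Adam10-202, a transcript of the nonsense-mediated decay class with 513 codons, had 6.38 TPM (deposited interval 3.898 to 8.02) in replicate 2 and 2.76 TPM (0.438 to 4.32) in replicate 1, and these intervals overlapped. In this RSEM-format table, the difference in Adam10 TPM between the animals lay mainly in reads assigned to this transcript. In the kallisto-format table Adam10-202 took 32.01% in replicate 2 and 27.7% in replicate 1, at 9.71 and 8.20 TPM. Adam10-201 was not level there, at 18.4 TPM in replicate 2 and 20.9 TPM in replicate 1.

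For Bace2, reads and TPM gave different leading transcripts. Bace2-201, the full enzyme of 514 codons and 7646 bases, took 23.0% of the TPM in replicate 2 and 31.7% in replicate 1, but 80.3% and 83.4% of the reads. Its level was 0.780 TPM in replicate 2 and 0.790 TPM in replicate 1. Bace2-202, an incomplete transcript of the nonsense-mediated decay class of 806 bases, took 54.95% and 55.1% of the TPM from 29.5 and 24.2 reads. In the kallisto-format table Bace2-202 led only in replicate 2, with 54.96%. In replicate 1 of that table it took 24.2%, below Bace2-201 at 36.97% and the retained-intron transcript Bace2-203 at 38.8%. The short Bace2-204 took 22.1% in replicate 2 and 0% in replicate 1, from 2.87 and 0 reads. The full-length Bace2 RNA was thus below the detection level of 1 TPM in both animals, also in the kallisto-format table at 0.715 and 0.861 TPM, although the gene as a whole was above it.

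Several Psen2 transcripts share a coding sequence of 448 codons, reads of these were assigned mainly to 1 of them, and the tables chose different ones. Psen2-205 took 66.1% in replicate 2 and 69.9% in replicate 1 in the RSEM-format table, while Psen2-204 took 52.2% and 61.6% in the kallisto-format table. The deposited TPM of Psen2-205 lay above its own deposited upper bound in both animals, at 6.28 against 5.06 in replicate 2 and 5.63 against 5.24 in replicate 1. The summed share of the consensus coding transcripts, which this choice leaves alone, was 66.1% in replicate 2 and 69.9% in replicate 1 in the RSEM-format table, and 54.9% and 61.6% in the other. Retained introns took 22.3% and 18.8% of Psen2 in replicates 2 and 1. Psenen-201 and Psenen-203 encode the same 101 codons and took 74.2% and 20.7% in replicate 2 and 62.1% and 32.2% in replicate 1, so that 94.9% and 94.3% of Psenen TPM encoded the full protein. Ncstn-201, with 708 codons, took 80.96% and 81.3%, and retained introns of Ncstn took 15.2% and 14.7% in replicates 2 and 1. In the kallisto-format table Ncstn-201 took 72.4% and 69.6%, and the retained introns 21.96% and 24.01%.

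For Aph1a, the longer coding form Aph1a-202 (265 codons) took 56.5% of the TPM in replicate 2 and 61.5% in replicate 1, and the shorter Aph1a-201 (247 codons) took 19.7% and 19.6%. The kallisto-format table gave 54.4% and 69.7% for the longer form and 17.95% and 17.6% for the shorter, so the longer form led in both tables and both animals. Aph1b-201, with 257 codons, took 67.4% and 71.7% of Aph1b in replicates 2 and 1. Aph1b-202, which lacks 123 of those coding bases, took 26.6% and 24.9% from 30.4 and 28.04 reads in the RSEM-format table, but 0% and 6.42% in the kallisto-format table. Aph1c-202, with 258 codons, had 2.88 TPM in replicate 2 and 2.02 TPM in replicate 1. The short Aph1c-201 had 1.73 TPM (deposited interval 0.575 to 3.11) from 23.7 reads in replicate 2 and 0.340 TPM (5.7e-06 to 1.25) from 5.18 reads in replicate 1. The kallisto-format table gave Aph1c-201 more, at 3.12 TPM (56.3%) in replicate 2 and 1.36 TPM (39.9%) in replicate 1, so that it led Aph1c-202 (43.7%) in replicate 2 and stayed below it (60.1%) in replicate 1.

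**Figure D5:**
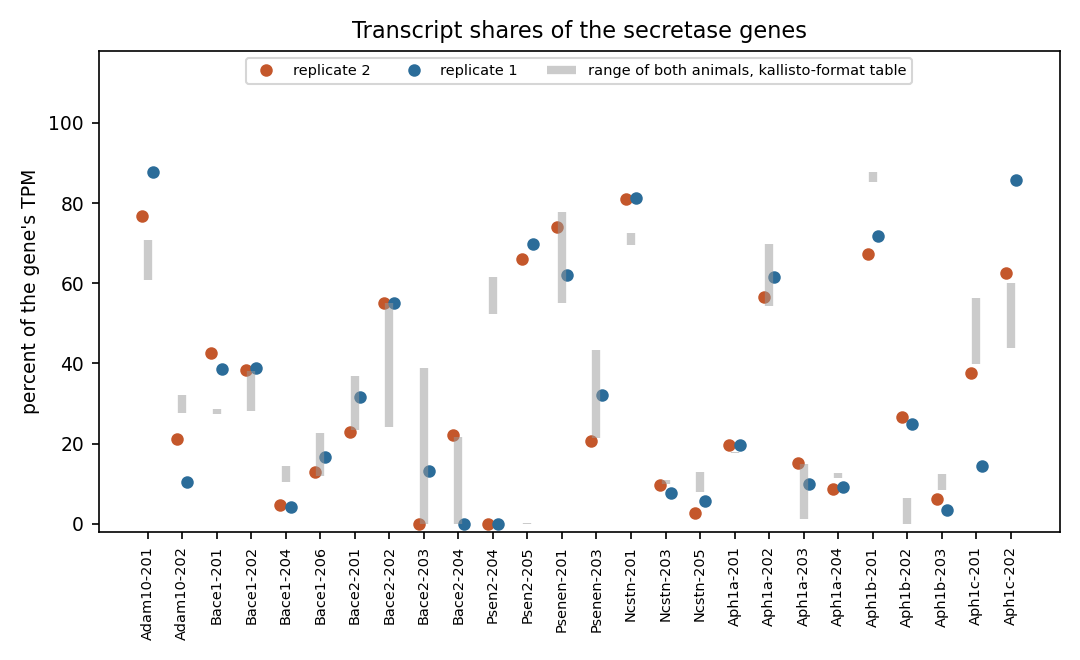
Percent of the gene's TPM in each transcript with a mean share of at least 10% in either table, replicate 2 left of replicate 1, with grey bars from the lower to the higher animal in the kallisto-format table. The shares of Aph1a-202 in both animals lie within its grey bar, those of Adam10-201 and Ncstn-201 lie above theirs, and Psen2-204 and Psen2-205 change places between the tables.

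Of the 25 secretase transcripts that took at least 5% of a gene with at least 100 reads, 8 differed in share by at least 10 points between the animals, against 20.3% of all such transcripts. They were the pairs Adam10-201 and Adam10-202, Psenen-201 and Psenen-203, Aph1c-201 and Aph1c-202, and Bace2-203 and Bace2-204. The shares are those of the RSEM-format table, and the 100 reads were required of the gene, not of the transcript. Bace2-203 rested on 0 and 5.32 reads, Bace2-204 on 2.87 and 0, and Aph1c-201 on 23.7 and 5.18, in replicates 2 and 1. Shares within a gene sum to 100%, so the members of a pair are not independent. This comparison was added after the shares had been seen.

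Sequence shared with other genes touched several levels. Bace1 shared 24.05% of its distinct 100-base stretches with Rnf214, Gm49338 and Gm16536, which lie on the opposite strand, and Rnf214 had 37.1 TPM in replicate 2 and 30.1 TPM in replicate 1. The strand setting of the counting is not given in the sources used here, and reads of Bace1 and of these genes cannot be told apart from the tables. Psenen shared 14.9% with Gm12396, Gm49396 and U2af1l4, Ncstn shared 2.27% with Copa, and Adam10, Bace2 and Psen2 shared none. Aph1a shared 34.7%, in part with its pseudogene Gm15429, which was given 56.9 reads in replicate 2 and 0 in replicate 1. Aph1a and Gm15429 together had 1304 reads in replicate 2 and 1303 in replicate 1, a log2 ratio of 0.04 (-0.08 to 0.15).

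The genes that work with the secretases were taken from 6 lists holding 65 genes found in the tables, of which 62 were detected, 63 tested and 0 called in either direction between the animals, against 1.22% of all genes tested. Of these, 14 had an interval that excluded equal levels at any fold, or 22.2% of the 63, against 8.76% of all genes tested. The interval narrows with reads, and all genes tested reach down to 10 reads, so these shares are not matched for depth. Rtn3 was among the 14 at a log2 ratio of 0.05, from 24417 reads in replicate 2 and 24203 in replicate 1. All 31 substrates were detected, with a median of 60.7 TPM in replicate 2 and 53.7 TPM in replicate 1. App, the amyloid precursor protein, had 618 and 569 TPM in replicates 2 and 1, its relatives Aplp1 552 and 533 TPM and Aplp2 265 and 233 TPM, and the prion protein gene Prnp 360.4 and 354 TPM. Reads of the human transgene that match the mouse sequence may be included in App, and this was not tested. Bace1, at 34.5 and 31.05 TPM, was far below App in both animals.

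All 9 genes of the BACE1 trafficking list were detected. The reticulons Rtn3 and Rtn4, which bind BACE1, had 353 and 289 TPM in replicate 2 and 315 and 270.5 TPM in replicate 1, Bin1, an endocytic adaptor, had 115 and 102 TPM, and Sorl1, a sorting receptor, had 65.9 and 56.98 TPM in replicates 2 and 1. Of 11 ADAM10 partners and regulators, 9 were detected. Tspan5, a tetraspanin that carries ADAM10 to the surface, led with 99.6 and 88.1 TPM, followed by Tspan17 at 33.7 and 31.5 TPM, the metalloprotease inhibitor Timp3 at 31.3 and 30.99 TPM, and Tspan14 at 19.7 and 16.97 TPM. All 8 gamma-secretase modulators were detected, led by Bsg (247 and 268 TPM), Arrb1 (82.2 and 78.9 TPM), Tmed10 (75.2 and 69.01 TPM) and Arrb2 (29.4 and 32.99 TPM). Of the relatives of presenilin, which cut single-pass proteins in the membrane, Sppl3 had 36.7 and 31.7 TPM, Sppl2b 21.6 and 18.9 TPM and Sppl2a 12.2 and 11.3 TPM, and Sppl2c was listed at 0 in both animals. Sppl3 was above Psen2 in both animals.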

How the data were processed

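Total RNA of 2 libraries of 1 group was analysed. For each library the authors deposited gene and transcript tables with RSEM headers and a transcript table with a kallisto header, on mm10 with annotation M21, per a deposited text description. Per the file headers, these hold expected counts and estimated counts, TPM, interval bounds of TPM whose level is not stated, and, per transcript, its percent of the gene. Not given in the sources used here are the aligner, versions, strand setting and read filters. The libraries are directional, per the labels' protocols. Reads of CAST alleles were quantified on mm10. Deposited effective lengths equal the length less 100 bases, and TPM includes spike-ins, which took 0.499% of reads in replicate 2 and 0.516% in replicate 1.

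Expected counts were rounded and scaled with edgeR 4.0.16 TMM in R 4.3.3. Size factors of DESeq2 1.42.0 were an alternative. Ratios added 0.5 reads, and intervals are Clopper-Pearson, at 95% where printed. The counting rule was checked only on counts simulated with counting error alone, the error it assumes, so that check does not cover other error. With 1 library per animal, no p-value was computed. Transcript models, coding identity, motifs and shared stretches of 100 bases were computed from GENCODE M21 with Biopython 1.88. Alternatives covered the quantification, the transcripts counted, the TPM denominator, the scaling, the reads added, the minimum count and the fold. All 9 secretase genes are named, and up to 4 per list by mean TPM, besides any called. The members and lists were chosen with earlier results of these data known. The other presenilin is not reported here. The symbol Hm13 was not found, so the list of relatives held 4 genes of 5. No label says whether the samples were prepared together.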

Additional observations from a re-analysis of the deposited data

How the results depend on the processing

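The ratios depended on what was counted. The mean ratio of Psen2 to Ncstn was 0.355 in the kallisto-format table, 0.303 with protein-coding transcripts, 0.228 in reads not divided by length and 0.279 with CCDS transcripts. In the same order, Psenen to Ncstn was 1.64, 1.87, 0.368 and 1.84, the Aph-1 sum to Ncstn 1.45, 1.91, 1.497 and 1.57, and Bace1 to Bace2 13.8, 29.0, 19.1 and 33.05. Aph1a to the sum of Aph1b and Aph1c was 1.24 in reads not divided by length. Otherwise it stayed within 1 SD of the mean of the animals, 2.77 ± 0.333. With CCDS transcripts it was 3.10, within that SD but above the value of either animal. The CCDS alternative was chosen after seeing the data. Leaving out replicate 2 or replicate 1 only returns the value of the other animal. Between the animals, these ratios ranged from 0.324 to 0.344, 1.54 to 1.62, 1.63 to 1.72, 10.1 to 12.5 and 2.54 to 3.01. The 237 genes called became 236 with DESeq2 size factors, 240.0 with total reads, 247 with spike-ins, 298 in the kallisto-format table, 237 with no minimum count and 347 at 1.5-fold, and 0 secretase genes were called under each. No paired analysis was possible because there was 1 group. Depth limits Bace2, Psen2 and Aph1c most, with 164 to 357 reads per library. Rescaling TPM to nuclear protein-coding genes divides all genes of a library by the same value. It therefore raised the level of all 9 genes, by more than the spread of the animals, and could not change their ratios.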

Other observations

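Genes that overlap or share sequence with the secretase genes had levels of their own. Copa, a coat protein gene beside Ncstn, had 63.4 TPM in replicate 2 and 57.9 TPM in replicate 1. U2af1l4, a splicing factor gene beside Psenen, had 26.96 TPM in replicate 2 and 32.7 TPM in replicate 1. Car14, a carbonic anhydrase gene beside Aph1a, had 6.55 and 7.44 TPM, and Jagn1 had 15.1 and 15.9 TPM in replicates 2 and 1. The antisense gene Gm16536 at Bace1 had 10.2 TPM in replicate 2 and 8.10 TPM in replicate 1, and Gm49338 at the same locus had 8.79 and 8.78 TPM.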
